A study of Mus musculus with 4 samples.

Results

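The semaphorins, plexins, ephrins, Eph receptors, Slit ligands, Robo receptors, netrins and Unc5 receptors were examined as one set of guidance genes. Members were all listed genes whose symbols belong to these families, taken by a fixed pattern of letters and digits. The pattern matched 65 symbols, and 4 of them, Sema3g, Efnb2, Ephb4 and Unc5b, were set aside by the same rule. That left 61 members among the 24873 listed genes, of which 33 encode ligands and 28 encode receptors.

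Guidance ligands tell a growing axon or a sprouting vessel where to go and where to stop. Semaphorins act through plexins, and most secreted class 3 semaphorins also need a neuropilin coreceptor. Ephrins sit on the cell surface and signal on contact with Eph receptor tyrosine kinases, Slits act through Robo receptors, and netrins act through Dcc, neogenin and the Unc5 family. In blood vessels these genes are known for sprouting, for keeping capillaries closed to leakage and for setting arterial and venous borders.

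The cells were CD31+CD45- cells of the cerebrum, labelled Brain tdTomato+, and came from mice of the label genotype Cdh5cre;Mgpflox/flox on day 9, with their RNA measured by RNA-Seq. All animals carried the VE-cadherin cre/ERT2 transgene, in which the endothelial VE-cadherin promoter drives a tamoxifen-activated Cre, together with 2 floxed alleles of Mgp, a secreted BMP inhibitor. At 10 weeks of age, mice of the tamoxifen group were given 75 mg/kg of the drug on each of 5 days, whereas control mice with the same alleles were given none. Each group had 2 libraries, each made from cells pooled from 3 mice, and the study used animals of both sexes without giving the sexes in each pool. Since tamoxifen was given to induce the deletion of Mgp, the drug itself and this deletion cannot be told apart between these groups. By real-time PCR, the study reported a fall of Mgp in such cells after tamoxifen. Table columns are headed C or A. The first letter was taken for the control group. The second was taken for the tamoxifen group, read as the malformation named in the series title, although no label holds an A.

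Between 35387438 and 49799321 reads fell on genes in each library, and 3 reads, taken as the detection floor, corresponded to 2.16 to 4.11 normalized counts. This floor covers counting error only. Mgp went from 1094 and 1352 normalized counts in controls to 945 and 909 with tamoxifen, a log2 fold change of -0.39 ± 0.18 (SE; limma adjusted p = 0.0986) that became 0.079 after rescaling to equal totals, and which exons are removed is not given in the sources used here. All 10 endothelial markers were lower with tamoxifen, and their sum went from 855090 and 906647 to 162510 and 84906 normalized counts. Markers of other cells moved at the same time. All 6 astrocyte markers were higher (sums 27117 to 31486 in controls and 134790 to 285980 with tamoxifen), as were 6 of 8 neuron markers (1097 to 1359 and 9896 to 14515), 4 of 6 oligodendrocyte precursor markers (4765 to 6434 and 18935 to 47373, whereas Gpr17 of that list fell from 1666 and 926 to 126 and 129), 5 of 6 oligodendrocyte markers (1103 to 1386 and 5345 to 5878), 7 of 7 fibroblast markers (2257 to 3213 and 59828 to 69822, Dpt at 0 in both controls) and 7 of 7 neutrophil markers (232 to 297 and 81197 to 108979). Rises were also called for 8 of 8 pluripotency genes (69.9 to 114 and 40988 to 53440), 6 of 6 cell cycle genes (1027 to 1198 and 74012 to 76291), 4 of 4 tested lymphocyte markers (60.3 to 80.1 and 1744 to 2359, Cd3e at 0 in control library 1), 3 of 6 microglial markers (1168 to 2257 and 2813 to 2892) and 2 of 8 mural cell markers (24248 to 42067 and 28419 to 58886). The part of these shifts in the results on guidance genes was not tested. In bulk libraries, fewer cells of a type and less RNA per cell cannot be told apart.

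Most guidance genes were higher in the tamoxifen libraries, while the few that controls held in greatest amount were lower. Of the 60 members that averaged 10 or more normalized counts and were tested, 34 rose (56.7%), 10 fell (16.7%) and 16 were not called. Over all 20485 genes tested, 28.6% rose and 16.0% fell, 44.7% in either direction. A gene was called when limma on log2(normalized count + 1) gave a Benjamini-Hochberg adjusted p under 0.05 over all genes tested and the log2 fold change was over 1 in size. The median log2 fold change of the members was 1.80, beside 0.05 for all genes tested. Both tamoxifen libraries lay above both control libraries for 40 of the 61 members (43.1% of all genes tested) and below them for 15 (39.2%), and 6 overlapped. The smallest p that exact permutation of 2 against 2 libraries allows is 0.333, so that the calls rest on the spread shared across genes. The summed signal of the members nevertheless went down, from 300922 and 309583 normalized counts to 122557 and 122535. The sum over all listed genes was also lower, at 5.13e+07 in both controls and 3.84e+07 and 3.58e+07 with tamoxifen.

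Leaving out tamoxifen library 1 gave 24 rises and 9 falls, and leaving out library 2 gave 17 and 10, while leaving out control library 1 or 2 gave 34 and 35 rises. Each such fit has 1 library in a group, which is assumed to vary like the other group, so that the spread comes from the pair that is left. A call lost in this way, here and below, does not show that the change rests on the library left out, and the median log2 fold change of the members was 1.96 without tamoxifen library 1 and 1.67 without library 2. No member's call changed direction under any setting tried. After quantile normalization 28 members rose and 14 fell, so that rises made up 66.7% of the calls in place of 77.3%, while the share of rises over all genes went from 64.1% to 45.6%. After rescaling to equal totals, 36 members rose and 8 fell, and the share over all genes was 79.7%. The median log2 fold change of all genes was 0.52 with equal totals and -0.23 with quantile normalization, and that of the members was 2.27 and 0.80.

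Per kilobase of exon, the levels of the members spanned a wide range in controls. Sema7a stood first at a mean of 25431 normalized counts per kb, followed by Robo4 at 8870, Sema3c at 5106 and Plxnd1 at 4735. Sema7a was also first in the tamoxifen libraries, at 2552 per kb, and Plxnb2 moved from place 14 (330 per kb) to place 2 (1537 per kb). All 7 members over 1000 per kb in controls fell, whereas 50.4% of the 1634 genes at that level did. Under 10 per kb, 21 of 23 tested members rose, beside 69.0% of the 5004 genes at that level. From 10 to 100 per kb, 10 of 17 rose, beside 27.7% of genes. From 100 to 1000 per kb, 3 of 13 rose and 3 fell, beside 7.63% and 18.7%. The part of the control level in the rises and falls of members was not tested. The control means of 3 tested members, Sema3e, Plxnb3 and Epha8, were under 10 normalized counts, so that they passed the filter through the tamoxifen libraries alone. Of the 57 other tested members, 32 rose and 10 fell. Over all 17031 genes with both group means at 10 or more, 3713 rose and 2852 fell. The level limits were chosen after the values were seen, and the control level is also the base of each fold change.

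**Figure D1:**
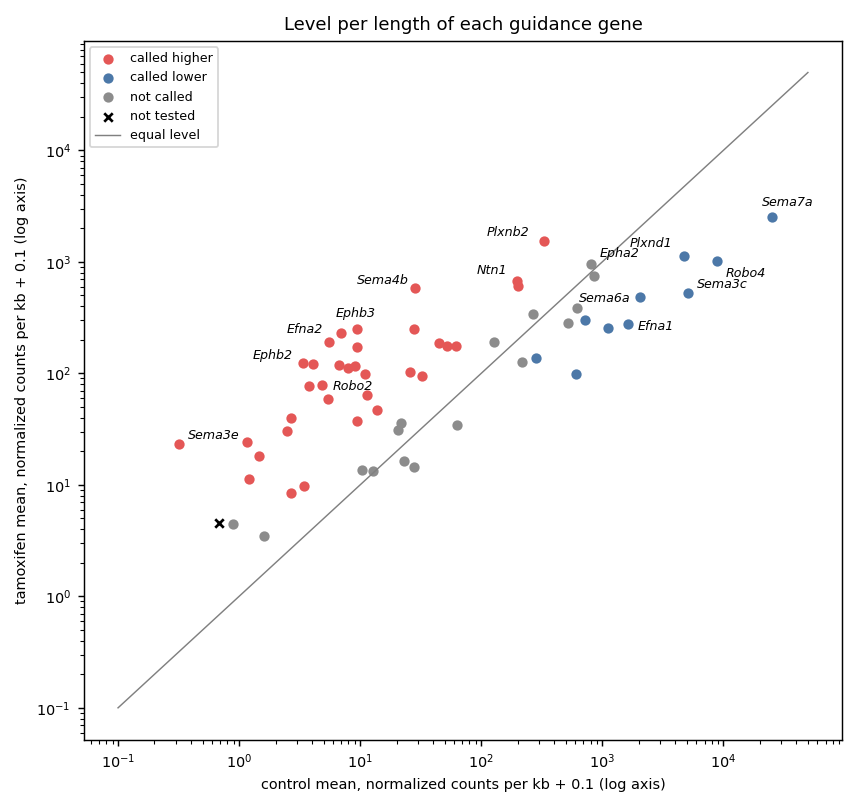
Each point is 1 guidance gene, with its mean over the 2 control libraries on the horizontal axis and over the 2 tamoxifen libraries on the vertical axis, in normalized counts per kb plus 0.1 on log axes, and the line marks equal levels. Blue points called lower lie at the right, with Sema7a at 25431 per kb in controls, and red points called higher lie mostly at the left, with Sema3e at 0.218 per kb in controls.

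**Figure D2:**
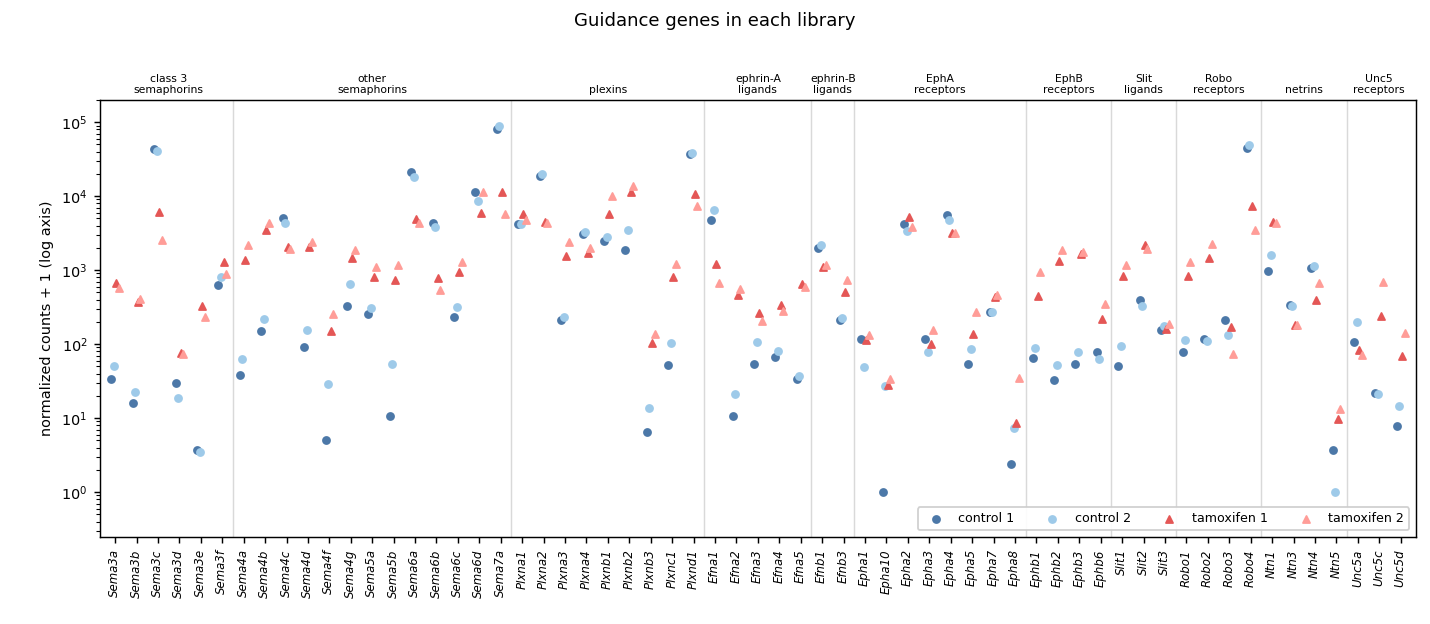
Normalized counts plus 1 of each of the 61 members on a log axis, with circles for the 2 control libraries and triangles for the 2 tamoxifen libraries, grouped by family. Triangles lie above both circles for 40 members, among them all 4 EphB receptors, and below both for 15, among them Sema7a, Sema3c, Robo4 and Plxnd1.

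The 6 secreted class 3 semaphorins split in opposite directions. Sema3c measured 42818 and 40597 normalized counts in the controls and 6011 and 2554 in the tamoxifen libraries. It fell 10.6-fold (log2 fold change -3.41 ± 0.36, SE; limma adjusted p = 0.000164). Sema3e, which binds Plxnd1 directly, gave 2.74 and 2.50 normalized counts in controls, below the floor of 3 reads, and 328 and 228 with tamoxifen, at least 70.7-fold higher. Sema3a, which collapses growth cones, went from 32.9 and 48.8 to 659 and 576 (log2 fold change 3.91 ± 0.36, adjusted p = 9.70e-05). Sema3b rose by a log2 fold change of 4.34 and Sema3d by 1.68. No control library of these 4 genes reached a tamoxifen library. Sema3f was not called, at 633 and 794 in controls and 1269 and 896 with tamoxifen (0.59 ± 0.23, adjusted p = 0.0585). The call of Sema3d was lost without control library 2 (adjusted p = 0.0684), without either tamoxifen library (0.139 and 0.135) and after quantile normalization.

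Among the 13 membrane-bound semaphorins, 8 rose and 4 fell. Sema7a, a GPI-anchored semaphorin that binds Plxnc1 and integrins, measured 80902 and 88008 normalized counts in controls and 11231 and 5721 with tamoxifen. It fell 10.5-fold (log2 fold change -3.40 ± 0.32, adjusted p = 0.000113), and tamoxifen library 2 held 50.9% of the value of library 1. Sema6a, a ligand of Plxna2 and Plxna4, fell from 20888 and 18325 to 4920 and 4309, and Sema6b fell from 4365 and 3805 to 774 and 546. Class 6 was not uniform, since Sema6c rose (231 and 318 to 939 and 1271) and Sema6d overlapped between groups (11232 and 8626 against 5901 and 11298). The class 4 semaphorins, ligands of B plexins and of receptors on immune cells, went the other way. Of 6, 5 rose and only Sema4c fell, from 5124 and 4316 to 2031 and 1904.

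Sema4a rose from 37.0 and 62.6 to 1364 and 2160 normalized counts (log2 fold change 5.13 ± 0.36, adjusted p = 3.64e-05). Sema4b rose from 151 and 220 to 3443 and 4311 (4.39 ± 0.24, adjusted p = 1.22e-05). Sema4d, the ligand of Plxnb1, rose from 89 and 153 to 2056 and 2392 (4.24 ± 0.29, adjusted p = 3.24e-05). In these 3 genes the lowest tamoxifen value was far above the highest control value. Sema4f (4.02) and Sema4g (1.84) rose as well. Sema5b, a semaphorin with thrombospondin repeats, had the highest log2 fold change of the membrane-bound group at 5.27 ± 0.71 (adjusted p = 0.000500), but its controls differed among themselves, at 9.59 and 52.6 against 723 and 1164. Its log2 fold change was 4.10 without control library 1, below those of Sema4a (4.76) and Sema4b (4.12) in the same fit, and 6.44 without control library 2. Without tamoxifen library 1 or 2 the adjusted p of Sema5b was 0.0647 and 0.0887, that of Sema4f 0.104 and 0.150, and that of Sema4g 0.0788 and 0.116. Sema5a and Sema6c lost their calls without tamoxifen library 2 (0.0517 and 0.0533). Sema4c lost its call after rescaling to equal totals, at a log2 fold change of -0.79. Exons of Sema4c, Sema4d and Sema4g share 16.8%, 13.7% and 12.7% of their length with listed genes on the other strand, and the strand setting of the counting is not given in the sources used here.

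Of the 9 plexins, the receptors of semaphorins, 5 rose and 2 fell, which changed the order of the family. Plxnd1, the endothelial plexin, measured 37365 and 37782 normalized counts in controls and 10593 and 7359 with tamoxifen (log2 fold change -2.09 ± 0.23, adjusted p = 0.000191). Plxna2 fell from 18517 and 19979 to 4506 and 4277 (-2.13 ± 0.16, adjusted p = 4.82e-05), and both tamoxifen libraries lay close to each other. All 3 B plexins rose. Plxnb2 went from 1893 and 3503 to 11435 and 13702, Plxnb1 from 2435 and 2799 to 5757 and 10010, and Plxnb3 from 5.48 and 12.5 to 102 and 136. Plxnc1, the Sema7a receptor, rose from 50.7 and 104 to 800 and 1193 (3.73 ± 0.40, adjusted p = 0.000177), and Plxna3 rose from 210 and 232 to 1550 and 2367. Plxna1 (4150 and 4212 against 5813 and 4794) and Plxna4 (3076 and 3225 against 1718 and 2006) were not called, the latter because its log2 fold change of -0.76 was under the limit of 1. Without tamoxifen library 2 the calls of Plxnc1, Plxnb3 and Plxnb2 were lost (adjusted p 0.0545, 0.0609 and 0.0687), and that of Plxnb2 also without library 1 (0.0504).

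The ephrin-A ligands, which are tethered by a GPI anchor, held 1 member that fell and 4 that rose. Efna1, a ligand of Epha2, measured 4723 and 6553 normalized counts in controls and 1225 and 666 with tamoxifen (log2 fold change -2.62 ± 0.29, adjusted p = 0.000214). Efna2 rose from 9.59 and 20.0 to 456 and 549 (5.07 ± 0.48, adjusted p = 0.000112) and Efna5 from 32.9 and 36.3 to 658 and 585. Efna3 (53.4 and 106 to 266 and 205) and Efna4 (65.7 and 80.1 to 337 and 280) rose from similarly low levels. The transmembrane ephrin-B ligands differed, since Efnb3 rose from 208 and 228 to 513 and 733 and Efnb1 was not called at 1960 and 2194 against 1095 and 1160 (log2 fold change -0.88 ± 0.16, adjusted p = 0.00223). Efna3 and Efna4 lost their calls without either tamoxifen library (adjusted p 0.0587 to 0.199) and after quantile normalization, and Efnb3 without tamoxifen library 2 (0.0727) and after quantile normalization. Exons of Efna3 and Efna4 share 30.7% and 10.3% of their length with listed RNAs on the other strand.

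All 4 EphB receptors rose, whereas of the 8 EphA receptors Epha5 alone was called, and the difference between the classes was not tested. Ephb2 measured 31.5 and 51.3 normalized counts in controls and 1312 and 1848 with tamoxifen (log2 fold change 5.24 ± 0.35, adjusted p = 2.73e-05). Ephb3 went from 52.0 and 77.6 to 1654 and 1771 (4.73 ± 0.28, adjusted p = 1.72e-05). Ephb1 rose from 64.4 and 87.6 to 439 and 953, and Ephb6, whose kinase domain is inactive, from 78.1 and 62.6 to 216 and 343. Exons of Ephb6 and Epha1 share 14.7% and 36.9% of their length with listed genes on the other strand. Ephb4, the venous EphB receptor, is not a member, and it fell. The 2 EphA receptors with the most signal per kb were not called. Epha2 measured 4157 and 3379 in controls and 5213 and 3789 with tamoxifen (0.25 ± 0.20, adjusted p = 0.322), so that the groups overlapped. Epha4 measured 5527 and 4751 against 3163 and 3132 (-0.70 ± 0.15, adjusted p = 0.00573) and missed the limit on size. Epha5 rose from 53.4 and 85.1 to 134 and 268 (1.48 ± 0.48, adjusted p = 0.0293). Epha7, Epha1, Epha3, Epha8 and Epha10 had values of at most 465 in any library. Some of these were called higher in other settings, namely Epha8 and Epha10 without control library 2 (log2 fold changes 2.87 and 4.94), Epha1 without control library 1 (1.34, adjusted p = 0.0446) and Epha7 with equal totals (1.18). The call of Epha5 was lost without control library 1 (adjusted p = 0.0555), without either tamoxifen library (0.0893 and 0.271), after quantile normalization, without the filter on low values and without the trend. Ephb6 lost its call without either tamoxifen library (0.0525 and 0.0996) and after quantile normalization, and Ephb1 without tamoxifen library 2 (0.0517).

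**Figure D3:**
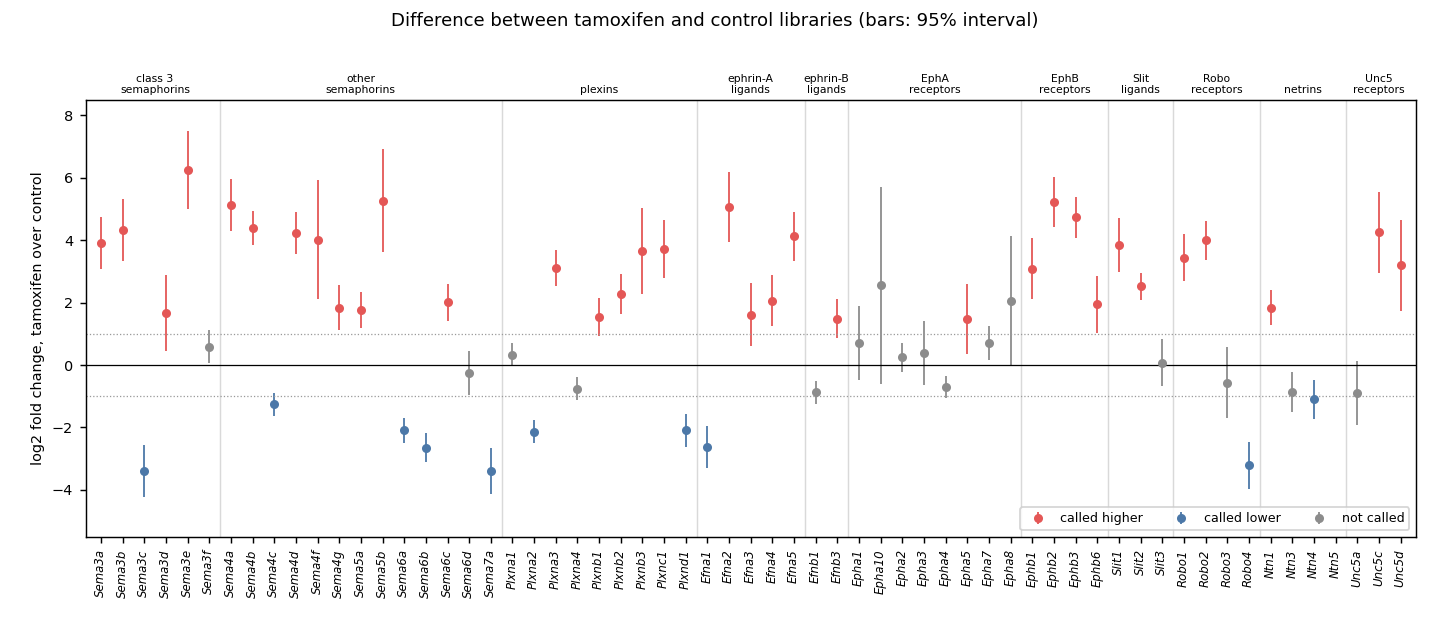
Log2 fold change of tamoxifen over control for the 60 tested members, grouped by family, with 95% intervals from limma as bars and dotted lines at the limit of 1 in either direction. Red members (34) rose, blue members (10) fell and grey members (16) were not called, and the EphA panel is mostly grey while the EphB panel is all red.

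Of the Slit ligands 2 rose and 1 was not called, and the Robo receptors moved in opposite directions. Robo4, the Robo receptor of endothelial cells, measured 45048 and 49009 normalized counts in controls and 7277 and 3520 with tamoxifen. It fell 9.28-fold (log2 fold change -3.21 ± 0.32, adjusted p = 0.000135). Robo1 and Robo2, the Slit receptors of growing axons, rose from 78.1 and 114 to 832 and 1293 and from 116 and 110 to 1472 and 2267, the latter with an adjusted p of 2.89e-05. Robo3 was not called and its groups overlapped (210 and 131 against 169 and 73.3). Slit2 rose from 394 and 327 to 2177 and 1950 (2.52 ± 0.19, adjusted p = 4.80e-05), and Slit1 from 49.3 and 92.6 to 842 and 1165 (3.85 ± 0.37, adjusted p = 0.000116). Slit3 had almost the same values in both groups, at 153 and 174 against 159 and 184. The 95% interval of its log2 fold change ran from -0.69 to 0.82, but after quantile normalization it was called lower, at -1.11 (adjusted p = 0.0174).

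The netrins, laminin-related guidance proteins, held 1 member that rose and 1 that fell. Ntn1 measured 963 and 1616 normalized counts in controls and 4529 and 4350 with tamoxifen (log2 fold change 1.83 ± 0.24, adjusted p = 0.000451). Ntn4, a netrin of the vascular basement membrane, fell from 1075 and 1126 to 388 and 676 (-1.10 ± 0.27, adjusted p = 0.00987). Ntn3 was not called at 334 and 327 against 182 and 178 (-0.87 ± 0.27, adjusted p = 0.0261), and Ntn5 was too low to be tested (2.74 and 0 against 8.67 and 12.2). Of the Unc5 receptors, Unc5c rose from 20.5 and 20.0 to 235 and 693 (4.25 ± 0.56, adjusted p = 0.000462) and Unc5d from 6.85 and 13.8 to 68.3 and 139. Unc5a was not called, at 105 and 195 against 83.5 and 71.2. The call of Ntn1 was lost without either tamoxifen library (adjusted p 0.0619 and 0.0677), that of Ntn4 without tamoxifen library 1 (0.0638), after equal totals and without the trend, and that of Unc5d without tamoxifen library 2 (0.0760).

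Several ligands and receptors known to bind each other did not move together. Sema7a fell while its receptor Plxnc1 rose, and Sema3e rose while its receptor Plxnd1 fell. Efna1 fell while Epha2, its receptor, was not called. In other pairs both partners went the same way. Sema4d and Plxnb1 both rose, Slit2 rose with Robo1 and Robo2, and Sema6a and Plxna2 both fell. These pairs were chosen after their values had been seen.

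The makeup of each family was measured as the share of each member in its summed normalized counts per kb. The 10 members that fell made up 91.3% and 91.6% of the summed signal of all members in controls and 48.8% and 32.8% with tamoxifen. The 34 that rose went from 1.68% and 2.41% to 33.0% and 46.3%. Both sets were picked by their change in these same libraries, so the direction of these shifts follows from the choice. Sema7a gave 70.8% and 74.2% of semaphorin signal in controls and 47.1% and 29.8% with tamoxifen, where it remained the leading semaphorin. Plxnd1 gave 70.1% and 67.1% of plexin signal and then 31.5% and 20.5%, while Plxnb2 went from 3.45% and 6.03% to 33.0% and 37.0% and became the leading plexin. Efna1 went from 68.8% and 72.5% of the signal of the 7 ephrin members to 25% and 14.8%, and Efnb1 led these in tamoxifen library 2 at 22.3%. Efnb2, which is not a member, measured 423 and 424 per kb with tamoxifen, above Efna1 (357 and 194) and Efnb1 (275 and 292). Among members, the Eph and Robo families kept their leading genes as well. Epha2 held 53.7% and 52.1% of the signal of the 12 Eph members in controls and 55.2% and 43.0% with tamoxifen. The EphB members went from 1.78% and 2.60% to 21.5% and 31.0%. Ephb4, which is not a member, measured 3122 and 3624 per kb in controls and 1389 and 834 with tamoxifen. In each library it lay above Epha2 (887 and 721, then 1113 and 809), so these Eph shares describe the members alone. Robo4 still made up 91.3% and 79.0% of Robo signal in the tamoxifen libraries, after 99.6% and 99.7% in controls. These shares add up to a whole within each library, and they leave out Sema3g, Efnb2, Ephb4 and Unc5b.

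**Figure D4:**
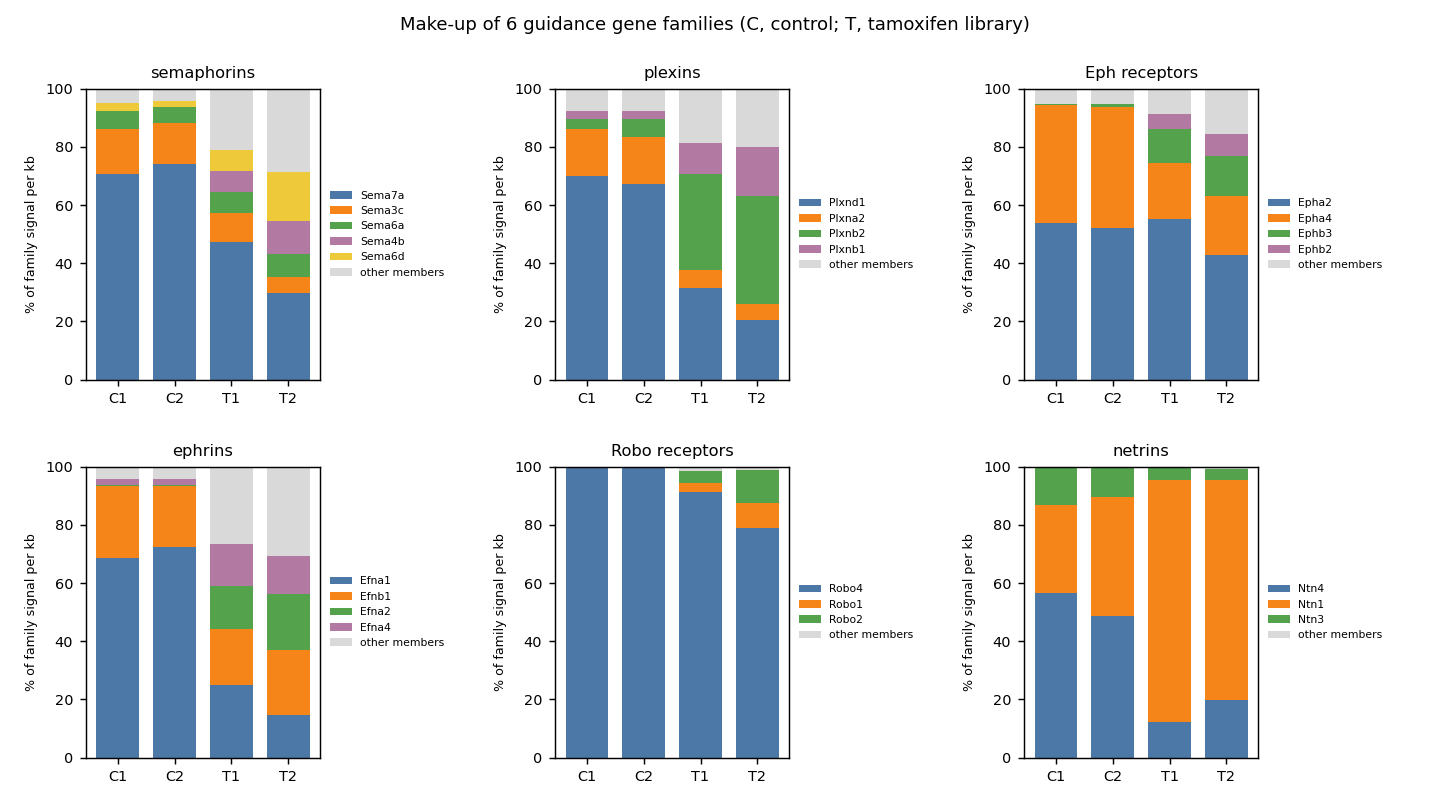
Stacked bars of the share, in percent, of each family's summed normalized counts per kb taken by its main members in control libraries (C1, C2) and tamoxifen libraries (T1, T2). Blue segments, the leading control member of each family, shrink in the semaphorins (Sema7a), plexins (Plxnd1), ephrins (Efna1) and netrins (Ntn4), while Epha2 stays between 43.0% and 55.2% and Robo4 stays at 79.0% or more. Sema3g, Efnb2, Ephb4 and Unc5b are left out of the bars.

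The members that fell were set beside 10 endothelial markers (Pecam1, Cdh5, Kdr, Tie1, Tek, Cldn5, Erg, Emcn, Vwf and Eng), all of which fell, with a median log2 fold change of -2.91. As a percentage of the geometric mean of these markers per kb in the same library, Sema7a measured 200% and 206% in controls and 152% and 149% with tamoxifen. Robo4 (69.6% and 71.7% to 61.5% and 57.4%) and Sema3c (43.0% and 38.6% to 33.0% and 27.0%) were also below their control ratio. The ratio was above both controls for 6 of the 10, among them Plxnd1 (38.6% and 37.0% to 59.9% and 80.2%) and Plxna2 (8.82% and 9.01% to 11.7% and 21.5%). Sema6b overlapped. Any gene that falls less than the markers gets a higher ratio, so a raised ratio is not particular to these members. It was also above both controls for the uncalled Epha2, Epha4, Efnb1, Plxna1, Plxna4 and Sema6d. The share over all genes was not counted. The tamoxifen libraries also differed from each other in marker level. Library 2 held 43.5% to 61.1% of the library 1 value for the 10 markers, and 42.5% for Sema3c, 48.4% for Robo4, 50.9% for Sema7a and 54.4% for Efna1. The other members that fell gave 69.5% to 94.9%, except for Ntn4 at 174%. For the members that rose the median was 135% (69.4% to 295%), beside 107% for the members not called and 94.5% over all genes tested. With 2 libraries per group these ratios are a description, and the part of the marker level in each fall was not tested.

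**Figure D5:**
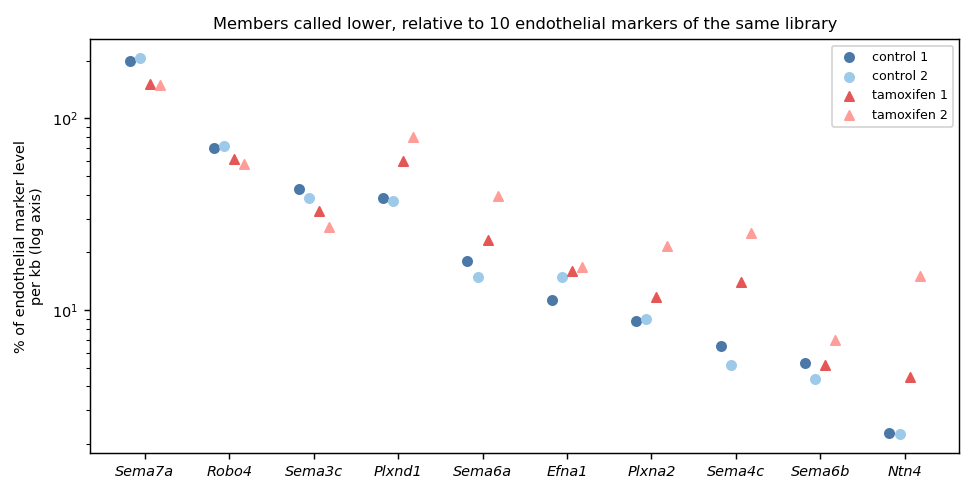
Normalized counts per kb of the 10 members called lower, as a percentage of the geometric mean of 10 endothelial markers in the same library, on a log axis, with circles for control and triangles for tamoxifen libraries. Triangles lie below the circles for Sema7a, Robo4 and Sema3c and above them for 6 members such as Plxnd1 and Plxna2.

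Members that lie on the same chromosome did not always share a direction. On chromosome 3 of GRCm39, Efna1 (chr3:89179037-89188449) fell, while its neighbours Efna3 and Efna4 rose. A gap of 32.8 kb separates the spans of Efna1 and Efna3 and 10.4 kb those of Efna3 and Efna4, with no other coding gene between. On chromosome 5, Sema3d, Sema3a and Sema3e rose and Sema3c (chr5:17779219-17935648), 3473 kb from Sema3e with 16 coding genes between, fell. On chromosome 9, Robo4 (chr9:37313193-37326411) and Robo3 end 0.554 kb from each other on opposite strands, and Robo4 fell while Robo3 was not called. Robo1 and Robo2, 844 kb apart on chromosome 16, both rose. The 250 bases upstream of the canonical transcript starts of the 3 adjacent ephrin-A genes and of Sema3e and Sema3c are shown 5′ to 3′ on the strand of the gene from the GRCm39 sequence, to set side by side the windows of genes of a family that went in opposite directions. Capitals mark each CG dinucleotide. Efna1 (chr3:89186955-89187204, minus strand) holds 18 of them, Efna3 (chr3:89230273-89230522, minus strand) 18, Efna4 (chr3:89245374-89245623, minus strand) 8, Sema3e (chr5:14075040-14075289, plus strand) 7 and Sema3c (chr5:17778969-17779218, plus strand) 8.
Efna1: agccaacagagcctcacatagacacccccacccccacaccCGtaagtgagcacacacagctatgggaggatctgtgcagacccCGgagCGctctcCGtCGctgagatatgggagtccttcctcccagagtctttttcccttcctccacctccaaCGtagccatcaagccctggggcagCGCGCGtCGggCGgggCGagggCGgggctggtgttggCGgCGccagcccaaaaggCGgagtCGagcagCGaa
Efna3: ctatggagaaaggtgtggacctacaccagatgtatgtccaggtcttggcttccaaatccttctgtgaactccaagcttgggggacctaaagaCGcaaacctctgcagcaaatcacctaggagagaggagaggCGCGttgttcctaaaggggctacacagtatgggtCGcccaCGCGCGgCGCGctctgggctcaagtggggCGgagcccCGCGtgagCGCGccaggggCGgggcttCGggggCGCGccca
Efna4: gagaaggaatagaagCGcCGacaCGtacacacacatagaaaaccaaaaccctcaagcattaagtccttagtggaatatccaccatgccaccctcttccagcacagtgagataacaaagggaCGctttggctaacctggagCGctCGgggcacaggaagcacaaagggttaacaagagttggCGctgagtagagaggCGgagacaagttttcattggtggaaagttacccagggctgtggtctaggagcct
Sema3e: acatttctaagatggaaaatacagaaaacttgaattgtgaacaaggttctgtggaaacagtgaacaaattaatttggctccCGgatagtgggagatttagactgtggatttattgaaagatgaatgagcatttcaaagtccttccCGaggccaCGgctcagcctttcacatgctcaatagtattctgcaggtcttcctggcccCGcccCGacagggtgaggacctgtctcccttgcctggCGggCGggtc
Sema3c: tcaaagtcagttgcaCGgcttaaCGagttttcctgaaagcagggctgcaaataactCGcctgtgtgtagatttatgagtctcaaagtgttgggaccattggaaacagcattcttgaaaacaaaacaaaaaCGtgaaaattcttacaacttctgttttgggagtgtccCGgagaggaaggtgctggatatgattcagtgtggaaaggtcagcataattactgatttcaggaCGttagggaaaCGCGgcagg

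The number of CG dinucleotides in these windows was counted and not tested between sets. The median was 12 CG dinucleotides per window for the 34 members that rose, 14 for the 10 that fell and 13 for the 16 not called, and 11 for 15570 tested coding genes, with 8 for those called higher and 10 for those called lower. Windows with at least 10 made up 55.9%, 70.0% and 62.5% of the 3 sets and 56.8% of all, with 44.2% of the coding genes called higher and 53.1% of those called lower. CAGGTG, the E-box bound by Snail factors, was found on either strand in 4 windows of members that rose, in 0 of those that fell and in 2 of those not called, beside 17.3% of all windows. CCGGAAG, an ETS factor motif, was found in 2, 0 and 0, beside 8.68% of all. Neither motif contains the other. A match says only that these letters occur in the window.

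The coreceptors and signalling partners of the guidance genes, a list of 47 genes, also went both ways. Of these, 20 rose (42.6%) and 13 fell (27.7%), beside 28.6% and 16.0% of all genes tested, with a median log2 fold change of 0.25. The rises include Hjv and Ntng1, whose control means of 0 and 2.50 normalized counts were under the filter. Both passed it through the tamoxifen libraries alone. Nrp1, the neuropilin that class 3 semaphorins and VEGF share, fell from 31939 and 29073 normalized counts to 6452 and 4791 (log2 fold change -2.45 ± 0.21, adjusted p = 6.89e-05), and Nrp2 fell from 7166 and 7162 to 3727 and 2850 (-1.14 ± 0.18, adjusted p = 0.00103). Ablim1, an actin-binding protein downstream of netrin signals, fell from 131752 and 123638 to 23425 and 11249, and Tiam1, an activator of Rac, from 36702 and 32590 to 8382 and 5103. Draxin, a secreted partner of Dcc, rose from 28.8 and 48.8 to 1153 and 1958, and Dpysl5, a collapsin response mediator, from 82.2 and 115 to 2461 and 3788. Hjv, a BMP coreceptor of the repulsive guidance molecule family, was at 0 in both controls and at 43.4 and 33.8 with tamoxifen, at least 9.81-fold higher, and its place among the rises cannot be given. Dcc, the netrin receptor of axons, rose from 42.5 and 57.6 to 624 and 1740, whereas Neo1, its relative, was not called (5136 and 4998 against 5405 and 6682). Nrp2 was under the limit on size without tamoxifen library 2 (log2 fold change -0.94), after equal totals (-0.67) and after quantile normalization (-0.80). Without tamoxifen library 2, 13 partners rose. Falls numbered 8 after rescaling to equal totals.

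The 4 symbols that the rule set aside were none of them higher. Sema3g fell from 9972 and 9283 normalized counts to 1606 and 627 (log2 fold change -3.26 ± 0.38, adjusted p = 0.000245). Ephb4 fell from 15686 and 18210 to 6980 and 4191 (-1.64 ± 0.25, adjusted p = 0.000980), and Unc5b, the Unc5 receptor of endothelial tip cells, from 11341 and 10996 to 3727 and 3190 (-1.70 ± 0.16, adjusted p = 0.000109). Efnb2, the arterial ephrin, was not called (5939 and 4665 against 3067 and 3068, -0.78 ± 0.17, adjusted p = 0.00545), since its change was under the limit on size.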

How the data were processed

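Members, classes and partner lists were chosen with earlier results of these data known, and nothing here is independent of them. RNA libraries were made by the study with a stranded mRNA kit. Per the submitters' processing notes, STAR 2.7.10a, GRCm39 and DESeq2 1.36.0 were used, and by the study's methods genes with low counts were removed. The annotation release, strand setting and low-count limit are not given in the sources used here. The deposited table holds a signal for each gene, which is its read count scaled by the authors with a single factor for the whole library. Undoing that factor gave whole reads for 100% of the values (tolerance 0.01 reads). No other column of values was left unused.

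The main test was limma 3.58.1 (R 4.3.3) on log2(normalized count + 1), moderated along the mean-variance trend and limited to genes averaging 10 or more normalized counts. Such fold changes understate the change of low genes. P values measure the spread between 2 pools per group. Exon lengths, positions and windows came from the GENCODE M39 annotation of GRCm39. Text genes were named by a rule: the member with the most signal and the largest rise and fall of each family, Mgp, the genes set aside, Nrp1, Nrp2 and the 3 largest rises and falls among partners. Other members, Dcc and Neo1 were named after their values were seen. Alternatives were pseudocounts of 0.5 and 5, a filter at 100 or none, rescaling to equal totals or quantiles, a fit without the trend or with a replicate block, count tests of the recovered reads (edgeR 4.0.16, DESeq2 1.42.0), the adjusted p alone, and each library left out.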

Additional observations from a re-analysis of the deposited data

How the results depend on the processing

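Every called member kept its direction under every setting tried, and 17 of the 34 that rose and 8 of the 10 that fell also kept their call in each. Of the 16 not called, 4 stayed so in each. Slit3, Robo3 (-1.69), Unc5a (-1.95) and Ntn3 (-1.89) were called lower with quantile normalization, Unc5a (-1.33) also without control library 1, and Sema3f (1.06) and Epha7 (1.18) were called higher with equal totals. With the replicate number as a block, 36 members rose and 10 fell, all 44 calls were shared, and Epha8 (2.06) and Epha10 (2.55) were added. The numbers were otherwise taken only as names of the libraries. Deviations of libraries with the same number correlated at 0.025 over 2 pairs, which cannot decide whether such libraries were handled together. Leaving out each library in turn gave 17 to 35 rises and 9 to 11 falls among members, 13 to 22 rises and 10 to 13 falls among partners, and 3073 to 6466 rises and 1906 to 3535 falls over all genes, against 34 and 10, 20 and 13, and 5867 and 3284. The low ends for rises came without tamoxifen library 2, and the cause was not tested. A filter at a mean of 100 left 3540 rises over all genes, with fewer genes tested. With equal totals, 8 partners and 1838 of all genes fell, and with quantile normalization 5509 of all genes fell. By the adjusted p alone, without a limit on size, 20 partners and 5228 of all genes fell. On recovered reads, edgeR called 5864 rises and 3377 falls over all genes and DESeq2 5694 and 3046, and both gave 34 and 10 among members. Log2 fold changes of uncalled genes crossed 0 with equal totals (Sema6d 0.20, Mgp 0.079), with quantile normalization (Sema6d 0.27, Epha7 -0.24, Epha1 -0.45, Slit3 -1.11, Epha3 -0.80) and with libraries left out (Sema6d -0.74 to 0.20, Robo3 -1.17 to 0.026, Slit3 -0.036 to 0.17). Members with few reads, such as Epha8, Epha10 and Ntn5, are limited by depth.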
